A study of Homo sapiens with 6 samples.

Results

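The 10q26 locus is a span of human chromosome 10 from 121 to 129 Mb (hg38), near the end of the long arm, that runs from FGFR2 to MKI67. Its 8 named genes are FGFR2, ATE1, FAM24B, FAM24A, FANK1, ADAM12, C10orf90 and MKI67, of 49 protein-coding genes in the span and 19974 on chromosomes 1 to 22 and X. The genes were picked for their different LaminB1 coverage in the same double loss and control libraries that are described here, so every value below is a description of 4 libraries and carries no test. Just outside the span, WDR11 had 100% of its body inside LaminB1 regions in all 4 lists, and MGMT on the other side had 28.2% to 33.5%. Just inside it, FGFR2 differed between the groups over nearly its whole body and MKI67 was covered in only 1 list.

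The cells were HCT116, a line from a human colorectal carcinoma, here carrying an auxin-inducible degron (mAID) on TOP2A, and LaminB1 was mapped in them by CUT&RUN. The double loss group was the TOP2A mAID/TOP2B -/- line given 500 uM auxin (indole-3-acetic acid) over 8 h; the series text puts the removal of TOP2A at up to 95%. The control group was the TOP2A mAID line, for which the protocol gives no auxin step; the genotype field calls it wildtype. Palbociclib, an inhibitor of CDK4 and CDK6, was given to both groups at 2 uM over 28 h to hold the cells in G1. Each had 2 LaminB1 libraries and 1 IgG library, and 1 list of called regions per LaminB1 library was analysed. The labels do not say whether libraries of a group came from separate cultures, and their spread may be technical.

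LaminB1 is a fibrous protein of the nuclear lamina, the meshwork under the inner nuclear membrane. Sequence that touches it falls into long lamina-associated domains, which in most cell types are poor in genes, rich in A and T, and weakly transcribed. CUT&RUN releases DNA next to a bound antibody, so a called region marks sequence where LaminB1 reads outnumber those of a control library. Type II topoisomerases cut both strands of DNA, pass another duplex through the break and reseal it, which removes supercoils and tangles; TOP2A acts mainly in dividing cells and TOP2B also in resting ones.

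The lists held 12410 and 12242 regions in the double loss group and 10771 and 13599 in the control group, with 8151172 and 8351031 LaminB1 reads against 7374626 and 7263458. The lists count reads inside regions and no others, so how deeply each library was sequenced is unknown. The bodies of TOP2A, TOP2B and LMNB1 had 0% inside regions in all 4 lists, so the lists hold no check of the degradation or the knockout. Regions with equal edges had equal control library counts in 105 of 105 cases within a group and in 3 of 154 between groups. Each group was thus scored against control reads of its own. In every difference below, genotype, auxin, the cell line and the control library used cannot be told apart.

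Promoters of 4 of the genes are shown first, because their start sites lie differently against the region edges. They are RefSeq sequences on GRCh38.p14, from 250 bases before to 50 bases after the most upstream listed start, written 5′ to 3′ on the gene's own strand. Capitals mark GGGCGG, the core of the GC box bound by Sp1-family factors, or its complement CCGCCC. The FGFR2 promoter lies at chr10:121598395-121598694 (minus strand), the FAM24A promoter at chr10:122910360-122910659 (plus strand), the ADAM12 promoter at chr10:126388428-126388727 (minus strand) and the MKI67 promoter at chr10:128126374-128126673 (minus strand).
FGFR2: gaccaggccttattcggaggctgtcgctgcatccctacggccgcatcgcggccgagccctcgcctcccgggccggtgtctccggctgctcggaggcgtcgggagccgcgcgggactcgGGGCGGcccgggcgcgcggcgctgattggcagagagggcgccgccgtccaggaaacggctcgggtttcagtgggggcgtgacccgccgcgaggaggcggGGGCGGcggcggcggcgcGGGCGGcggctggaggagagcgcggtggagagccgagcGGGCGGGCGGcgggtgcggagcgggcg
FAM24A: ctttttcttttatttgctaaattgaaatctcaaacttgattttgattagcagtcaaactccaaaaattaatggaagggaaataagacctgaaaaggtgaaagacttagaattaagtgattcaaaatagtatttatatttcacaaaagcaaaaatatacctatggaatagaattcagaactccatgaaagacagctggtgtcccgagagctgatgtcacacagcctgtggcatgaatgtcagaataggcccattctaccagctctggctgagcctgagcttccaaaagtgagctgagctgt
ADAM12: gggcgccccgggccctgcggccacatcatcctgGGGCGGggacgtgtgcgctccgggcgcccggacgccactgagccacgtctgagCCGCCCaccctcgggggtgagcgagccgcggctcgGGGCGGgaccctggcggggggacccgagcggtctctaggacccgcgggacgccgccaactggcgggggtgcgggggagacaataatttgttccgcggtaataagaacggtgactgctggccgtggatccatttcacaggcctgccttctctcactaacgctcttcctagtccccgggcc
MKI67: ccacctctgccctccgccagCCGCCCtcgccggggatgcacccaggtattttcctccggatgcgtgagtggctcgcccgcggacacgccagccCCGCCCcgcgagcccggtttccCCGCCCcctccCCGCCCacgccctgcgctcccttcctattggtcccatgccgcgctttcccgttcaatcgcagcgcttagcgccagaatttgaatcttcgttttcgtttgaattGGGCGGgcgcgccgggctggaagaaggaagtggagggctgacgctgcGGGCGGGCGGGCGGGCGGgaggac

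The FGFR2, ADAM12 and MKI67 promoters are rich in G and C, at 79.3%, 71.0% and 69.7%, whereas the FAM24A promoter is at 37.3%. They hold 5, 3 and 9 matches of GGGCGG on either strand, overlapping matches included, and FAM24A holds 0. The motif occurs in 58.3% of 15812 promoters of protein-coding genes, taking 1 promoter per gene. FAM24A holds 1 match of TATAAA on either strand, which 9.75% of those promoters hold. A match is a description of the letters and not of a bound factor.

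LaminB1 regions covered 42.4% and 38.1% of the span in the double loss lists, against 45.8% and 42.5% in the control lists. The groups came closest at the first double loss library and the second control library, 42.4% against 42.5%. The means were 40.2% ± 3.01 in the double loss group and 44.1% ± 2.40 in the control group (SD, n = 2 each). The difference of -3.91 percentage points was close to the spread between libraries of a group. Over the rest of chromosome 10 coverage was 21.8% ± 0.0790 in the double loss group and 21.1% ± 1.14 in the control group (SD, n = 2 each). The places that were covered differed more than this total.

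**Figure D1:**
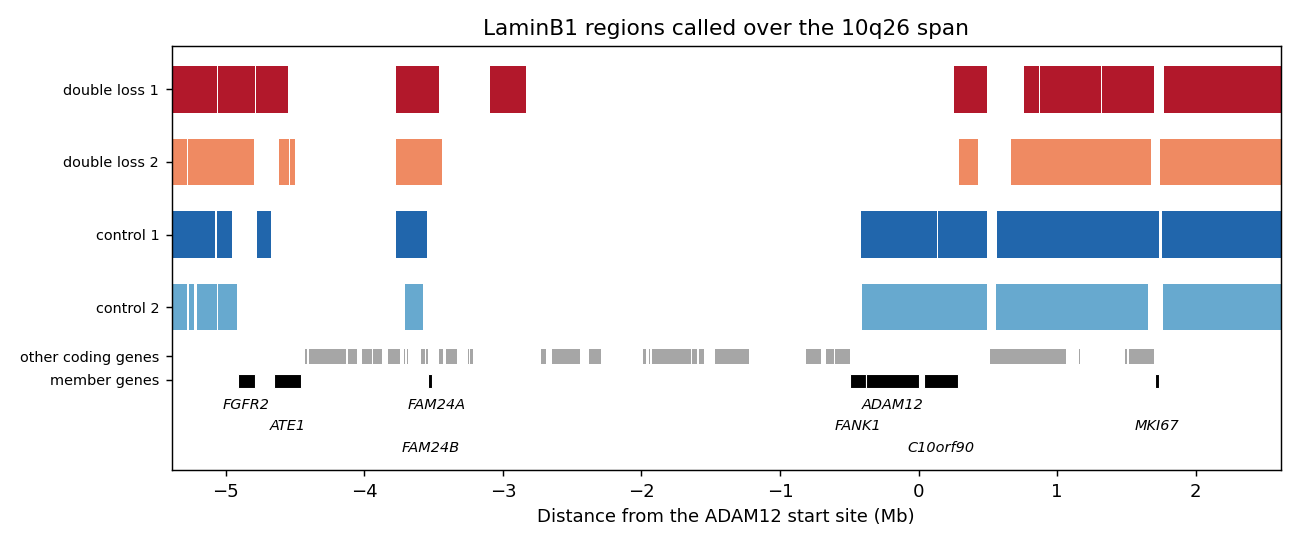
LaminB1 regions (blocks) in the 2 double loss and the 2 control lists over the 10q26 span, with distance from the ADAM12 start site in Mb on the x axis, member genes in black and other protein-coding genes in grey. The control blocks over ADAM12 have no double loss counterpart, and the double loss blocks reach farther right over FGFR2, ATE1 and the FAM24 genes.

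Base by base, 268 kb of the span was covered in the double loss lists only (both of them, and no control list), and 753 kb in the control lists only. The first length was 600 kb without the second double loss library and 415 kb without the first control library. With each list reduced to 10771 regions by log2 fold, the lengths were 0 and 197 kb. The 197 kb, from 126682001 to 126879000, are not part of the 753 kb. With all regions kept, 66.5% of them was in all 4 lists and 0% was control-only. With each list reduced to its upper 50% of log2 folds both lengths were 0, since no region of the span was left. Over all chromosomes the double-loss-only and control-only classes sum to 56.3 and 38.9 Mb, so the span holds 0.476% of the first and 1.94% of the second. All 4 lists shared 2350 kb, or 29.4% of the span, and 3570 kb, or 44.6%, lay in no list. The double-loss-only sequence formed 3 pieces of 122, 68 and 75 kb, over FGFR2, ATE1 and the FAM24 genes, plus pieces of 1 and 2 kb at DMBT1 and CUZD1. The control-only sequence formed 1 piece of 539 kb from 125983001 to 126522000, over the end of FANK1, all of ADAM12 and part of C10orf90, and pieces of 37, 77 and 100 kb after it. Protein-coding gene bodies filled 82.0% of the double-loss-only and 94.8% of the control-only sequence, 19.96% of the sequence shared by all 4 lists and 56.2% of that in no list. They filled 47.4% of the whole span. Because the locus was picked around genes whose coverage differed, the first 2 shares follow in part from that choice. No such share over all chromosomes is given here.

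In 20 kb steps, 227 of 400 steps were covered in at least 1 list. Both double loss lists lay above both control lists in 17 of these steps (7.49%), where 14.1% of all covered steps in the genome did. Both lay below in 40 steps (17.6%), against 9.80% in the genome. On chromosome 10 outside the span the shares were 8.90% above and 7.96% below. A gap of at least 50 percentage points was found above in 13 of the 227 covered steps (5.73%), where 4.77% of covered steps in the genome had it, and below in 38 (16.7%), where 3.13% did. The locus was picked around genes whose coverage differed in these lists, so the step shares follow in part from that choice. The steps above came in runs of 7 at FGFR2, 4 at ATE1, 1 at DMBT1 and 5 at the FAM24 genes. The steps below came in runs of 34, from 125980001 to 126660000, and of 6, from 126940001 to 127060000. The remaining covered steps overlapped between the groups, and 103 of them were full in all 4 lists.

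Of the 49 protein-coding genes, 20 had some sequence inside a region in at least 1 list and 29 had none. Both double loss lists lay above both control lists for 6 genes, FGFR2, ATE1, DMBT1, CUZD1, FAM24B and FAM24A, and below for 4, FANK1, ADAM12, C10orf90 and DOCK1. Over all chromosomes 3058 genes had covered sequence, and 21.5% of them lay above and 13.9% below. A gap of at least 50 percentage points was found for 4 genes above (FGFR2, ATE1, FAM24B and FAM24A) and 2 below (ADAM12 and C10orf90). That gap was met by 2.16% of genes above and 1.96% below over all chromosomes. The genes of the span with that gap are all named genes, so their number follows in part from the choice of locus. Of the 8 named genes 4 lay above, 3 below and 1 overlapped; these counts follow from how the genes were picked.

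**Figure D2:**
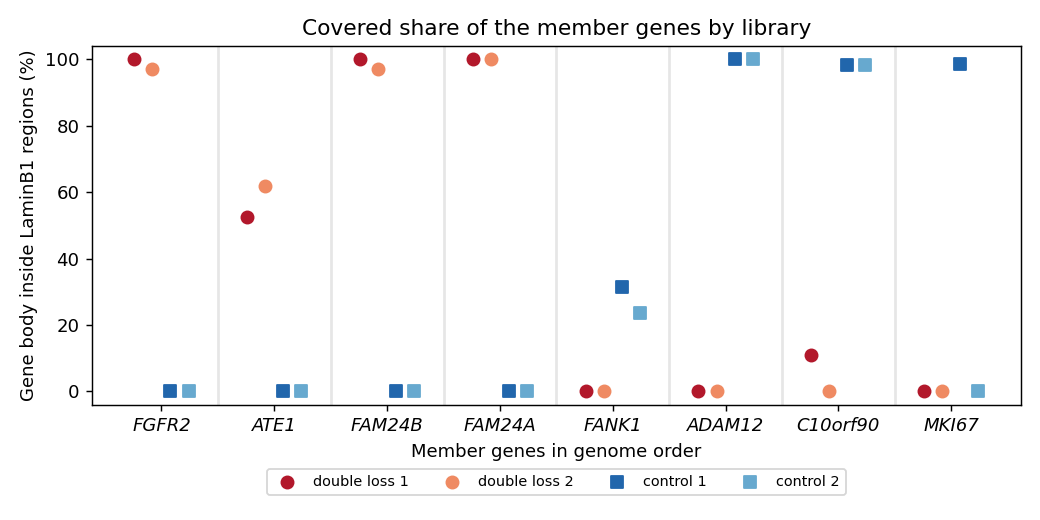
Share of each member gene body inside LaminB1 regions (%, y axis) in each library, with genes in genome order on the x axis, double loss libraries as circles and control libraries as squares. FGFR2, ATE1, FAM24B and FAM24A are covered only in double loss libraries, FANK1 and ADAM12 only in control libraries, and MKI67 in 1 control library.

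FGFR2, a receptor tyrosine kinase for fibroblast growth factors, lies at 121478330 to 121598458 and is read towards lower coordinates. Its body was 100% and 97.1% covered in the double loss lists, against 0% and 0% in the control lists. The double loss values do not overlap the control values, but with 10771 regions per list FGFR2 was at 0% in all 4 lists. In the double loss lists the regions over the gene ran from 121450001 to 121601000 and from 121113001 to 121595000. The nearest control regions on the lower side ended at 121433000 and 121473000, before the gene's end, and in the first control list another region began at 121614001, beyond its start. The control lists thus left the gene as an uncovered stretch next to covered sequence. The most upstream start site, at 121598444, was inside the first double loss region by 2.56 kb and outside the second by 3.44 kb. Of the 5 listed FGFR2 starts, 3 were inside regions in both double loss lists, and none was in a control region.

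ATE1, the arginyltransferase that tags protein N termini for degradation, lies at 121740424 to 121928463. It was 52.4% and 61.7% covered in the double loss lists, against 0% and 0% in the control lists. The groups did not overlap, but with the authors' adjusted p at most 0.01 ATE1 was at 52.4% and 0% in the double loss lists, against 0% in both control lists, and with 10771 regions per list at 0% in all 4. In the first double loss list the covered part was the lower end of the gene, up to 121839000. In the second list regions lay from 121771001 to 121847000 and from 121852001 to 121892000, which left the lower end of the gene uncovered. Its start site at 121928031 lay 89.0 and 36.0 kb from the nearest region edge in the double loss lists and was in no region in any list. The part of ATE1 covered in both double loss lists was the 68 kb piece from 121771001 to 121839000.

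FAM24B and FAM24A, a pair of neighbouring paralogues of little known function, lie at 122849078 to 122879641 and at 122910610 to 122913111. FAM24B was 100% and 97.0% covered in the double loss lists, against 0% and 0% in the control lists. FAM24A was 100% covered in both double loss lists, against 0% in both control lists. Both genes had their start sites inside regions in both double loss lists and in no control region. With 10771 regions per list both genes were at 0% in all 4 lists. They share 1 region in each double loss list, from 122736001 to 122925000 and from 122850001 to 122949000, and are not independent of each other. The control regions next to them ended at 122844000 and 122814000.

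CUZD1, DMBT1 and C10orf88, nearby, each varied between libraries of a group. CUZD1, at the control edge, was 100% covered in both double loss lists, against 86.4% and 0% in the control lists. DMBT1, a scavenger receptor gene, was 32.2% covered in both double loss lists, against 31.0% and 0% in the control lists. C10orf88 was at 0% and 77.6% in the double loss lists, against 0% in both control lists. C10orf120 was 100% covered in all 4 lists. The pseudogene C10orf88B, between FAM24B and FAM24A, was, like FAM24A, 100% covered in both double loss lists, against 0% in both control lists.

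FANK1, which encodes a protein with fibronectin type III and ankyrin repeats, lies at 125896564 to 126009592 and is read towards ADAM12. It was 0% covered in both double loss lists, against 31.5% and 23.5% in the control lists. The covered part was the end of the gene, from 125974001 and 125983001 onwards. Its start site at 125896564 was in no region in any list, 77.4 and 86.4 kb from the nearest control edge.

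ADAM12, a membrane-anchored metalloprotease that sheds growth factor precursors, lies at 126012391 to 126388477. It was 0% covered in both double loss lists, against 100% in both control lists. With 10771 regions per list the coverage of FANK1, ADAM12 and C10orf90 was left in the first control list only. That setting keeps the first control list whole and cuts the second from 13599 regions, by log2 fold. A single region spanned ADAM12 in each control list, from 125974001 to 126522000 and from 125983001 to 126563000. The start site at 126388477 was inside those regions by 134 and 175 kb, and lay 256 and 295 kb from the nearest region edge in the double loss lists. The long noncoding RNA gene LINC00601, between ADAM12 and C10orf90, was 0% covered in both double loss lists, against 100% in both control lists. Of 56 long noncoding RNA genes in the span, 28 had covered sequence. Of these, 8 lay below, where 11.1% of 5377 covered long noncoding RNA genes over all chromosomes did, and 1, the readthrough gene FAM24B-CUZD1, above, where 14.5% did. The 8 lie inside the same control-only pieces as ADAM12, C10orf90 and DOCK1.

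C10orf90, also read towards lower coordinates, lies at 126424997 to 126670693. It was 10.9% and 0% covered in the double loss lists, against 98.4% and 98.4% in the control lists, and the groups did not overlap. The covered end in the first double loss list was part of a region from 126644001 to 126678000. The start site of its listed promoter lies within the gene body, at 126521441, and was inside both control regions, 0.559 kb from a region edge in the first control list and 41.6 kb in the second.

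DOCK1, an activator of the small GTPase Rac, begins in a stretch of 68 kb that was in no list. It was 54.0% and 72.8% covered in the double loss lists, against 91.1% and 91.9% in the control lists. The control regions began at 126954001 and 126950001, and the first double loss regions of the gene at 127148001 and 127054001. The antisense gene DOCK1-AS1 was 0% covered in both double loss lists, against 100% in both control lists. INSYN2A was at 79.4% and 100% in the double loss lists, against 100% in both control lists. Farther along, NPS, FOXI2 and CLRN3 were 100% covered in all 4 lists. PTPRE, a receptor-type tyrosine phosphatase gene, was at 100% and 88.3% in the double loss lists, against 98.9% and 76.6% in the control lists.

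MKI67 encodes Ki-67, a protein that coats mitotic chromosomes and marks proliferating cells, and lies at 128096659 to 128126423. It was 0% covered in both double loss lists, against 98.6% and 0% in the control lists, so the groups overlapped and the coverage rested on the first control library. Without that library the difference of means, at -49.3 points, was 0. That region, from 127909001 to 128126000, stopped 0.423 kb short of the gene's start site at 128126423. The second double loss list had a region that began at 128127001, 0.577 kb on the other side of the start. The MKI67 start was therefore in no region in any list, with region edges within 1 kb of it in 1 list of each group.

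**Figure D3:**
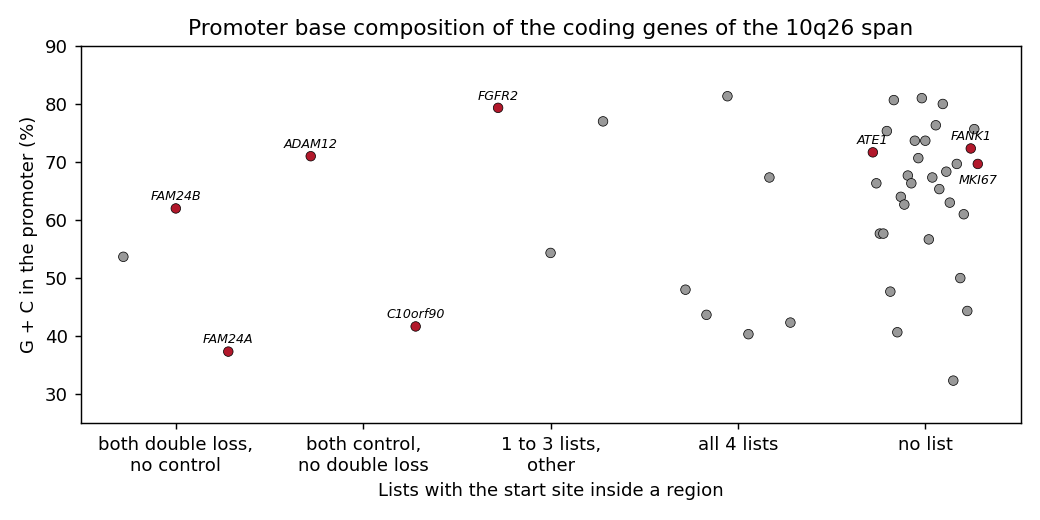
G and C content of the promoter (%, y axis) of 45 protein-coding genes of the span with a listed promoter, grouped by the lists in which the start site lay inside a region, with member genes in red. FAM24A and C10orf90 lie below 50%, and FGFR2, ATE1, FANK1, ADAM12 and MKI67 above 65%.

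Promoters were listed for all 8 named genes and for 45 of the 49 genes. The start site was in no list for 31 of these, with a median promoter G and C content of 67.3%, and in all 4 lists for 6, with a median of 45.8%. Over all chromosomes the medians were 63.3% for 14360 starts in no list and 46.7% for 389 starts in all 4 lists. The 78 starts in both control lists only had a median of 54.3%, and the 95 in both double loss lists only had 46.0%. In the first of these classes, ADAM12 stood at 71.0% and C10orf90 at 41.7%. In the second, FAM24B stood at 62.0% and FAM24A at 37.3%. INSYN2A and FOXI2, at 81.3% and 67.3%, had G and C rich promoters and were in all 4 lists.

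All 29 protein-coding genes of the span with no covered sequence lay in 3 stretches that were in no list. The longest, 2421 kb from 123553001 to 125974000, contained 17 whole protein-coding genes, among them CTBP2, a transcriptional corepressor gene, and UROS, of haem synthesis. Stretches of 725 and 345 kb contained 6 whole genes each, TACC2 and HTRA1 in the first, and BUB3 of the spindle checkpoint and the homeobox genes HMX2 and HMX3 in the second. The stretches of 473 and 361 kb at the far end of the span, which were in all 4 lists, overlapped no protein-coding gene, and another of 412 kb overlapped DOCK1 and NPS. In the first double loss list alone, a region of 259 kb from 123294001 to 123553000 lay in the interval between BUB3 and GPR26 and overlapped no protein-coding gene.

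Read counts describe how strong the regions were within each list. The regions of the span held 63006 and 59953 LaminB1 reads in the double loss lists (14 and 9 regions) and 66598 and 64388 in the control lists (10 regions each). Whole regions were counted, and in each list the first and last of them run past the edges of the span. All 43 regions ranked below the median of their own list in the log2 fold the authors deposited, which sets LaminB1 over control library reads. Their percentiles ran from 0.016 to 25.96 and from 0.074 to 23.9 in the double loss lists, and from 0.037 to 28.4 and from 0.029 to 27.1 in the control lists.

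Control library reads were dense here. Regions of the span had 13.1 control library reads per kb in both double loss lists and 10.3 in both control lists. Against the median region of the same list, that was 1.59 times in both double loss lists, and 1.61 and 1.60 times in the control lists. By this density each region stood at the 97.9th percentile of its list or higher. The density over the span thus stood in the same relation to the list in both groups, and was nearly even along it, at 11.7 to 13.4 reads per kb in double loss regions and 9.83 to 10.9 in control regions. LaminB1 read density was 16.1 and 16.4 per kb in the double loss lists, against 15.4 and 16.4 in the control lists. This too was above the median region of the same list, by 1.32 and 1.33 times in the double loss lists and 1.36 and 1.35 times in the control lists.

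**Figure D4:**
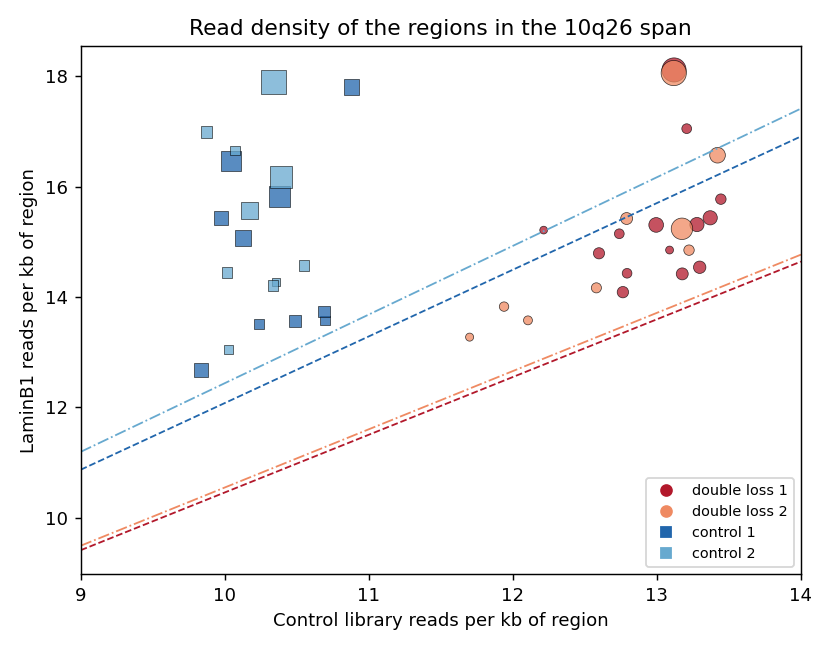
LaminB1 reads per kb (y axis) against control library reads per kb (x axis) for each region of the span, with double loss regions as circles, control regions as squares and symbol size rising with region width. Lines show the ratio at which the authors' log2 fold is 0 in each list; double loss regions lie at 11.7 to 13.4 control library reads per kb and control regions at 9.83 to 10.9.

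The ratio of LaminB1 to control library reads that a region needed differed between the groups. A log2 fold of 0 in the authors' lists corresponds to a ratio of 1.05 and 1.06 in the double loss lists and of 1.21 and 1.24 in the control lists. The lowest ratio of any region was 1.08 and 1.09 in the double loss lists, against 1.26 and 1.29 in the control lists. Over FGFR2 the regions had ratios of 1.17 and 1.23 in the double loss lists, with 15.8 and 16.6 LaminB1 reads per kb. Over ATE1 the ratios were 1.09 and 1.13, and over FAM24B and FAM24A they were 1.17 and 1.16. All these lie under the lowest ratio in either control list, but the ratio at log2 fold 0 is also higher there. In log2 fold the lowest region was at 0.0493 and 0.0515 in the double loss lists, against 0.064 and 0.0552 in the control lists. The regions over FGFR2, ATE1 and the FAM24 genes lie above all of these, the lowest at 0.065 over ATE1. What part the different ratios have in the difference between the groups was not tested. The log2 folds at FGFR2 were 0.17 and 0.23, in the lowest 1.18% and 4.33% of their lists, with the authors' adjusted p-values at 3.35e-08 and 7.5e-42. The second of these regions also took in covered sequence before the gene, and 56.2% of it was in all 4 lists. For ATE1 the authors' adjusted p-values were 0.00523 in the first double loss list and 0.0267 and 0.0497 in the second, and for the FAM24 genes 2.04e-09 and 0.000388.

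The regions over ADAM12 stood higher. Their ratios were 1.49 and 1.53 in the control lists, with 15.1 and 15.6 LaminB1 reads per kb, log2 folds of 0.30 and 0.30, and adjusted p-values by the authors of 2.84e-74 and 2.17e-79. They ranked at percentiles 9.32 and 7.26 of their lists, and the same regions hold the covered end of FANK1. The lists give no counts outside regions, so the ratio over ADAM12 in the double loss libraries is not known. C10orf90 had ratios of 1.52 and 1.58 in the control lists, and the small double loss region at its end had 1.14. MKI67 was in a weak region of the first control list, with a ratio of 1.29 and a log2 fold of 0.10, in the lowest 0.251% of the list.

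Read ratios were also taken by block. Counts were summed over the whole regions of a block, also where the first and last regions run past the span. The log2 ratio was then taken less the list's constant. The blocks are covered to different extents in the groups, so these values describe what each list called and do not compare the same sequence. Over the block up to FGFR2 (121000001 to 121601000) this value was 0.18 and 0.20 in the double loss lists, and over the block from DOCK1 to MKI67 (126950001 to 128126000) it was 0.15 and 0.13. In the control lists it was 0.10 and 0.15 over the FGFR2 block and 0.29 and 0.32 over the DOCK1 block. The regions held 98.7% and 98.2% of the FGFR2 block in the double loss lists, against 69.7% and 72.4% in the control lists, and 79.0% and 86.0% of the DOCK1 block against 99.3% and 93.0%. The block of ADAM12 and C10orf90 (125974001 to 126882000) stood at 0.08 and 0.09 in the double loss lists, where only 25.7% and 14.4% of it was covered, and at 0.32 and 0.35 in the control lists, where 99.6% and 97.8% was. The block after MKI67 was the highest of the span in all 4 lists, at 0.40 and 0.38 in the double loss lists and 0.44 and 0.48 in the control lists.

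**Figure D5:**
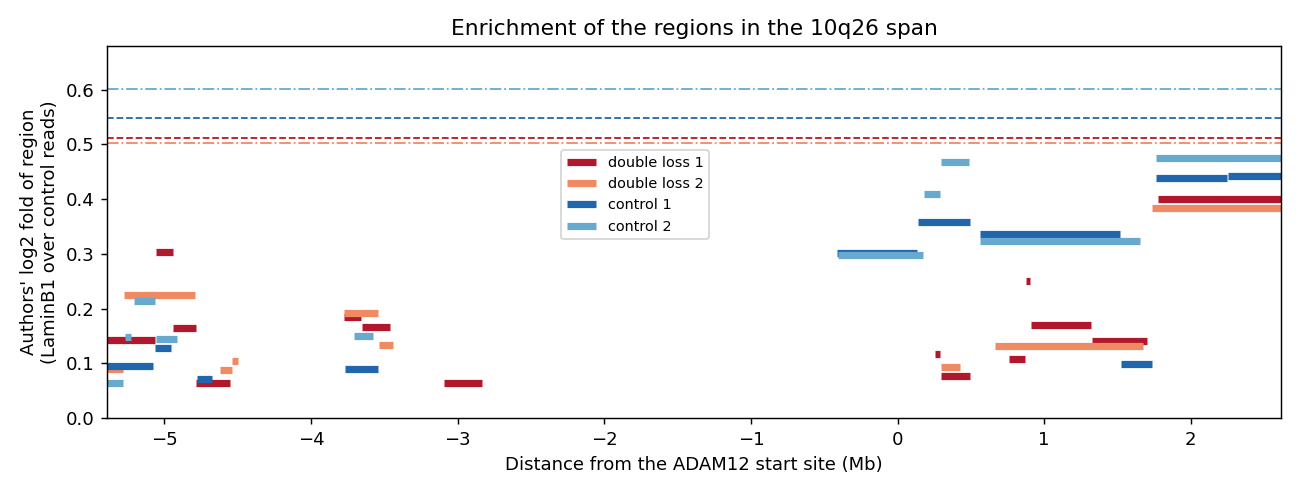
Deposited log2 fold (LaminB1 over control library reads) of each region of the span, drawn over its extent, with distance from the ADAM12 start site in Mb on the x axis and each list's median over all its regions as a broken line. All bars lie below the medians of 0.51 and 0.50 in the double loss lists and 0.55 and 0.60 in the control lists.

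Families of the 2 genes with opposite coverage were set beside them. Of 5 FGF receptor genes, FGFR2 was the only one with covered sequence, and FGFR1, FGFR3, FGFR4 and FGFRL1 were at 0% in all 4 lists. Of 21 ADAM family genes, 9 had covered sequence, 2 lay above and 2 below, where 21.5% and 13.9% of all covered protein-coding genes did. ADAM22 was at 8.56% and 34.6% in the double loss lists, against 0% in both control lists, and ADAM18 at 38.5% and 21.3% against 0% in both. ADAM19 was at 80.2% and 59.9% in the double loss lists, against 91.9% and 100% in the control lists. ADAM8, on the same arm as ADAM12, was at 0% in all 4 lists. The median difference was 0 points in both families and over all protein-coding genes. It could not be otherwise, since most genes of each set had no covered sequence: 4 of 5, 12 of 21, and all but 3058 of 19974.

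Among 10958 protein-coding genes of at least 20 kb outside the span, likeness to a pattern was taken as the mean absolute difference of covered share over the 4 lists. Nearest to FGFR2 were ABCA5 on chromosome 17 and SAMD7 on chromosome 3, each 2.90 points away, and CHMP4C, 4.93 points away. Nearest to ADAM12 were PPDPFL, 0.107 points away, DIRAS2 on chromosome 9, 2.40 points away, and SLC35B4 on chromosome 7, 5.38 points away.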

How the data were processed

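Paired reads of 75 bp came from LaminB1 CUT&RUN in HCT116 cells, per the labels' protocols. The submitters' processing notes name Bowtie2 2.3.4.3, Picard and hg38. What called the regions is not given in the sources used here. The regions were listed per library, with edges on a 1 kb grid. Per the file headers, the authors deposited whole-number counts of LaminB1 and of control library reads. A p-value, an adjusted p-value (at most 0.0500), a log2 fold and a score per region were deposited by the authors; the score is 100 times the log2 fold, which is the log2 count ratio less 1 constant per list (0.07 and 0.08 in the double loss lists, 0.27 and 0.32 in the control lists).

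Files were matched to samples by genotype and replicate number in their names. The share of bases inside regions was computed in Python 3.11.15 (pandas 2.3.3, numpy 2.4.6) and checked on made intervals. Genes and promoters came from RefSeq tables of GRCh38.p14, the assembly behind hg38. Coordinates count from 1. Regions on other chromosomes were left out, 1 or 2 per list. Values are mean ± SD with n = 2.

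The locus, its genes and the gene families were chosen with earlier results of these data known, from shares of this same contrast, so no test was run. Named genes were the 8 members, other genes of the span with covered sequence or as counts, the genes at its edges, the 3 genes nearest in pattern to FGFR2 and to ADAM12, and family members; the genes named within the stretches in no list were added for orientation. Alternatives left out each library, filtered or joined regions and changed steps, flanks and the gap asked for.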

Additional observations from a re-analysis of the deposited data

How the results depend on the processing

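The difference in covered share of the span, double loss minus control, was -3.91 points and ran from -6.03 to -1.78 with 1 library left out. The counts ran likewise from 22 to 35 (steps above, 17 before) and 40 to 52 (steps below, 40 before), 6 to 9 and 4 to 5 (genes above and below, 6 and 4 before), and the lengths from 326 to 600 kb (double loss only, 268 before) and 761 to 876 kb (control only, 753 before). The counts and lengths can only grow when a list is left out; steps above were 29 without control 1 and 35 without double loss 2, with 415 and 600 kb. When each list was reduced to its upper 50% of log2 folds, nothing of the span was left in any list, since all its regions rank below their list's median, and every value was 0. Reduced by log2 fold to 10771 regions per list, which keeps the first control list whole, the share difference was -18.8 points, steps were 0 above and 10 below, genes 0 and 0, and lengths 0 and 197 kb. The 197 kb and the 10 steps lie from 126680001 to 126880000, where the groups overlapped with all regions kept. In the reduced lists ADAM12 and C10orf90 were at -50 and -49.2 points, from the first control list alone, and FGFR2, ATE1, FAM24A and FAM24B at 0. With the authors' adjusted p at most 0.01, ATE1 was at 26.2 points and covered in the first double loss list only. Steps of 10 kb gave 30 above and 78 below, and steps of 50 kb gave 9 and 17, by construction. A gap of at least 50 points left 2 genes below. Of 80 values for the 8 genes, 58 were labelled as within the spread between libraries and 22 as moved. Where only 1 group varied, leaving out a library of that group shifts the difference by the pooled SD itself, a tie. Such ties were labelled moved for FGFR2 and MKI67 but not for ATE1, FAM24B, FANK1 and C10orf90, so the split does not measure robustness. No value changed sign, but some fell to 0, among them MKI67 without the first control library. With pairs of the same replicate number (replicate block) the mean difference of the span is -3.91 points by construction, from -3.48 and -4.34 in the pairs. The SD of the pair differences was 0.61 points, against a pooled SD within groups of 2.72. Deviations of same-numbered libraries were uncorrelated over 50358 steps (-0.001), so the numbers were not taken to pair the libraries. Depth outside regions is unknown, which limits every statement that a stretch is not covered.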
